A study of Mus musculus with 18 samples.

Results

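Hand2 encodes a basic helix-loop-helix transcription factor of the posterior limb bud. The Hand2 region of mouse chromosome 8 is described here by the binding sites of Pitx1 and Tbx5 found in and around it. A site is a summit, the highest point of a peak in chromatin immunoprecipitation followed by sequencing (ChIP-seq). The summits were chosen by position alone, as all those inside Hand2 (chr8:57320983-57324517 on build mm10) or within 300 kb of either end. This window of 603.5 kb held 65 of 65214 summits, namely 55 of the 54941 Pitx1 summits and 10 of the 10273 Tbx5 summits. The same rule at Hand1 (chr11:57828713-57832147), the other member of the gene family, gave 36 summits, 28 of Pitx1 and 8 of Tbx5.

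The 2 samples came from wild-type embryos of the outbred CD1 mouse: e11.5 hindlimbs for Pitx1 and e10.5 forelimbs for Tbx5, where e is the embryonic day. Both antibodies were homemade, and each factor had 1 sample in the series. The other 16 of the 18 samples of the series, histone marks and inputs, are not analysed here. Factor, limb, stage and antibody differed together, so their parts in any difference between the lists cannot be told apart. With 1 sample per factor no value has a replicate error and no test was run, and all comparisons below describe these lists. Read depth is unknown. The score of a summit is the peak caller's −log10 q, with a median of 7.07 over the Pitx1 list and 8.29 over the Tbx5 list. Exact Clopper-Pearson 95% intervals are given for shares and cover the counting of summits only.

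Hand2 and Hand1 proteins bind E boxes, short sites of the form CANNTG, as dimers with E proteins and other helix-loop-helix factors. In the early limb bud Hand2 and the hedgehog effector Gli3 restrain each other along the anterior-posterior axis, and Hand2 acts upstream of Shh, the signal of the posterior margin. Both Hand genes are also known for their roles in the heart, and Hand1 for its role in the placenta. Pitx1 is a homeodomain factor of the hindlimb, and Tbx5 is a T-box factor of the forelimb and the heart.

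Hand2 lies at the edge of a gene desert. Its nearest protein-coding neighbour on the lower-coordinate side, which is upstream because Hand2 is on the + strand, was Fbxo8, 727 kb away. On the downstream side the nearest was Scrg1, 131 kb away. Scrg1 is followed by Sap30, a subunit of the Sin3 histone deacetylase complex, by Hmgb2, a chromatin protein with HMG boxes, and by Galnt7, an enzyme of O-linked glycosylation. The long non-coding RNA (lncRNA) gene Hand2os1, also known as Upperhand, starts 0.124 kb upstream of Hand2 and is transcribed away from it. The lncRNA genes Gm34030, Hdnr and Gm34099 follow downstream, their nearer ends 10.71, 11.45 and 82.13 kb beyond the Hand2 start.

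Promoters that held a summit are printed first, since they are the sites for which sequence was at hand. RefSeq promoter windows (GRCm38.p6, 250 bases before to 50 after a gene's start) were found for 26 of the 38 annotated genes that overlap the Hand2 or the Hand1 window, as 36 promoter windows. Of the 36, 5 held a Pitx1 summit and 2 a Tbx5 summit. The windows of Hand2 and Hand2os1 held the same Pitx1 summit, and those of Sap30 and 2500002B13Rik the same Tbx5 summit. Over all 32851 promoter windows of the table, 8.96% held a Pitx1 summit and 1.18% a Tbx5 summit. Below are the 250 bases before the transcript start of each of 4 windows, 5′ to 3′ on the gene's strand, with the summit base and 20 bases on either side of it in capitals.
Hand2 (Pitx1 summit), chr8:57320733-57320982, + strand: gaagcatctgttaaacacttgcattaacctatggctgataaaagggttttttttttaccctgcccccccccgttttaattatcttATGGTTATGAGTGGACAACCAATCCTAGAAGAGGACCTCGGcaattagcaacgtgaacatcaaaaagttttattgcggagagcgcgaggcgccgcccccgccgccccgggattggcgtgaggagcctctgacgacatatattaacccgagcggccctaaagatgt
Gm34030 (Pitx1 summit), chr8:57333740-57333989, − strand: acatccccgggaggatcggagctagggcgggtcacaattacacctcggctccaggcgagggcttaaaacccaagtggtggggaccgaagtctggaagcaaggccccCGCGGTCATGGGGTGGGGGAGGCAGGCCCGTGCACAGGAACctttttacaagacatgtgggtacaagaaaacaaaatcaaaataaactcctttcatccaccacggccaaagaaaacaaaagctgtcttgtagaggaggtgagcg
Hmgb2 (Pitx1 summit), chr8:57511593-57511842, + strand: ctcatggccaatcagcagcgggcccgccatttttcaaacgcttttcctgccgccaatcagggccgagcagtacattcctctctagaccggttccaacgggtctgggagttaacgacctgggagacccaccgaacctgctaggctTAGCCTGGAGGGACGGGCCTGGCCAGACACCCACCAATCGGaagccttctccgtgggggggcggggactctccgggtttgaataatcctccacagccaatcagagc
Sap30 (Tbx5 summit), chr8:57487861-57488110, − strand: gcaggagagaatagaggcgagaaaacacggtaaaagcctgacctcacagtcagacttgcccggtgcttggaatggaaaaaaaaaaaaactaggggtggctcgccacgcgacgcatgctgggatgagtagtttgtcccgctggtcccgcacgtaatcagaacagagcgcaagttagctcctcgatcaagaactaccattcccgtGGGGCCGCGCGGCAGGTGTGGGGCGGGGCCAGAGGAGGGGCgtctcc

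The Hand2 promoter held a Pitx1 summit at position 57320838, 145 bases before the gene's start, with a score of 27.3. This summit ranked 7432 among the 54941 of its list and was also in the second Pitx1 list, a deposited subset of 17783 summits. What selected the summits of that list is unknown, so membership of it is a label and not a known property of a site. Its own further score was 50.01 at the lowest and 52.1 at the Hand2 promoter, close to that floor. It lies just past the start of Hand2os1, inside that gene, so it falls in the promoter windows of both genes. No Tbx5 summit lay in this promoter, and the nearest was 13552 bp away. The Gm34030 promoter held a Pitx1 summit with a score of 14.4, 124 bases before a transcript start that lies inside the gene, and also in the second list, and the Hmgb2 promoter held one with a score of 113, 86 bases before the start. The Tbx5 summit at Sap30 had a score of 3.6 and lay 27 bases before the gene's start, in the shared promoter region of Sap30 and the lncRNA gene 2500002B13Rik.

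Motif letters were looked for on both strands of the full promoter windows of 300 bases. TAATCC, a sequence bound by Pitx-type homeodomains, occurred in 7.06% of all promoter windows. It occurred in none of the windows of Hand2, Gm34030 and Sap30, and once in that of Hmgb2, 62 bases from the Pitx1 summit. GGTGTG, part of the T-box site, occurred in 19% of all promoter windows and once in that of Sap30, where its last base is 1 base from the Tbx5 summit. The same letters occurred once in the Hmgb2 window, 93 bases from its Pitx1 summit, and not in those of Hand2 and Gm34030. The longer T-box form AGGTGTGA, found in 1.28% of all windows and itself holding GGTGTG, was in none of these 4. CANNTG, the E box, was in 72.3% of all windows, with 2 matches each at Hand2 and Gm34030, 1 at Sap30 and none at Hmgb2. At Sap30 the E box match overlaps the GGTGTG match. These matches describe letters and not binding.

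**Figure D1:**
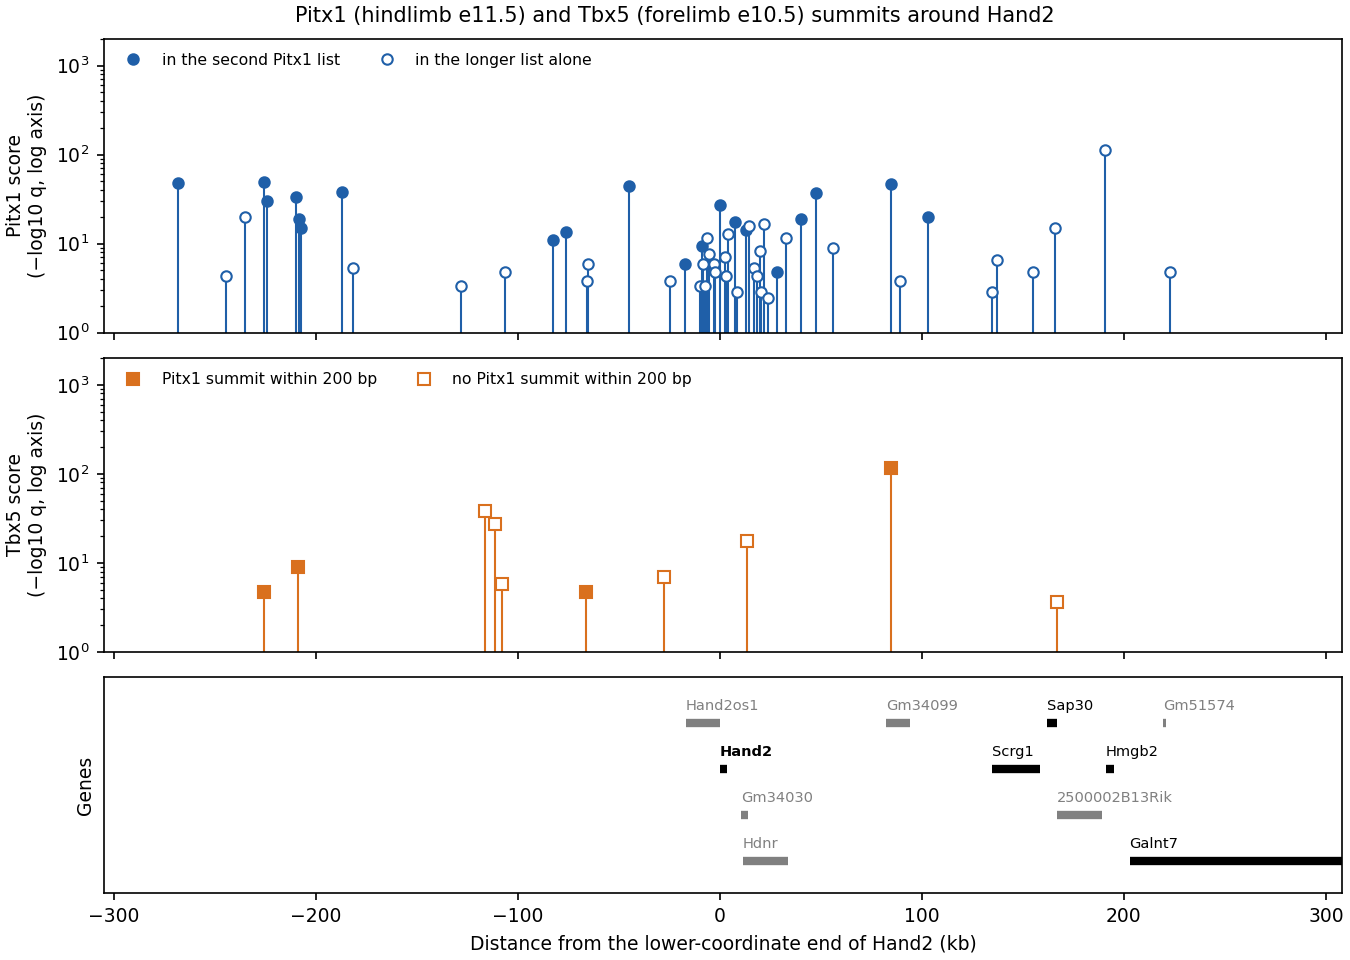
Summits around Hand2, placed by distance from the start of Hand2 (kb), with height as the score (−log10 q, log axis): Pitx1 in hindlimb e11.5 above, Tbx5 in forelimb e10.5 below, and protein-coding (black) and lncRNA (grey) genes at the bottom. Filled circles are Pitx1 summits in the second list and filled squares are Tbx5 summits with a Pitx1 summit within 200 bp; 29 of 55 Pitx1 summits and 2 of 10 Tbx5 summits lie inside the gene or within 50 kb.

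Pitx1 summits were densest next to Hand2. Inside the gene or within 10 kb of it lay 15 of the 55, within 20 kb 22 and within 50 kb 29. Per 100 kb there were 24 in the 50 kb upstream and 30 in the 50 kb downstream, as drawn in the bars of density by distance. At 50 to 100 kb there were 8 on each side, and at 100 to 200 kb 4 upstream and 5 downstream. Beyond 200 kb the sides differed, with 8 summits upstream and 1 downstream.

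The summits next to the gene were many but mostly of moderate score. The 29 within 50 kb had a median score of 7.07, equal to that of the list, and 9 of them were in the second list. The 26 farther away had a median of 12.2, and 11 of them were in the second list. Inside Hand2 itself lay 2 Pitx1 summits, with scores of 7.07 and 4.32, and neither was in the second list. Hand2os1 held 9, with scores between 3.35 and 27.3, and Hdnr, the lncRNA gene downstream, held 10, with scores between 2.45 and 16.6. Of the 55 summits, 21 lay in lncRNA genes, 6 in protein-coding genes and 28 outside every annotated gene. The same shares over the whole list were not computed, so nothing is read from these counts.

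Of the 10 strongest Pitx1 summits of the window, 3 lay within 50 kb of Hand2. First was the Hmgb2 promoter summit at 57511757 with a score of 113, rank 999 of the list. Next came 3 sites of like score, 49.2 at 57095412 (226 kb upstream of Hand2), 48.2 at 57052729 (268 kb upstream) and 47.2 at 57405550 (81 kb downstream, inside Gm34099). A site 44.9 kb upstream, at 57276111, scored 44.2. Then followed scores of 38.3 at 57134062 (187 kb upstream), 37.3 at 57368628 (44.1 kb downstream), 33.6 at 57111364 (210 kb upstream) and 29.9 at 57096636 (224 kb upstream). The tenth was the Hand2 promoter summit, at 27.3. Of these 10, 9 were in the second list, and the summit at Hmgb2 was not. These 10 are all the summits of the window with a score of at least 20. The share of 90% is close to the 83.8% of all Pitx1 summits of such a score, so nothing is read from it.

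A distant group of sites lay in the desert. More than 180 kb upstream of Hand2 were 10 Pitx1 summits between 57052729 and 57139322, a grouping made after the values were seen. Their median score was 24.8, and 8 of the 10 scored at least 10, against 37% of the whole Pitx1 list. In the second list were 7 of the 10, against 32.4% of the whole list and 65.1% of its summits of score at least 10. Nothing is read from the 7, since membership followed the score. These 10 summits were followed by the longest Pitx1 gap of the window, 53.4 kb, up to 57192767. The 2 Pitx1 summits between 100 and 180 kb upstream scored 3.35 and 4.84.

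Tbx5 summits were few and spread out. Upstream lay 7 of the 10 and downstream 3, with none inside Hand2. The highest score, 115, was at 57405477, 81 kb downstream inside Gm34099, rank 300 of the Tbx5 list. Scores of 38.6 at 57204655 and 27.2 at 57209758 followed, 116 and 111 kb upstream, with a weaker summit of 5.81 at 57212903 beside them. The summit nearest to Hand2 was at 57334390, 9.87 kb downstream inside Gm34030 and Hdnr, with a score of 17.8. The others scored 8.95 (209 kb upstream), 7.02 (27.4 kb upstream), 4.67 (226 kb upstream), 4.67 (66.2 kb upstream) and 3.6 (at Sap30). Adjacent Pitx1 summits of the window were a median of 4.41 kb apart, against 16.7 kb over the whole list. Adjacent Tbx5 summits were a median of 40.8 kb apart, against 94.8 kb over the whole list. In the Hand1 window these medians were 7.43 kb for Pitx1 and 52.2 kb for Tbx5, also below those of the lists. Spacing depends on the number of summits in a window, so it is not a result separate from the counts.

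**Figure D2:**
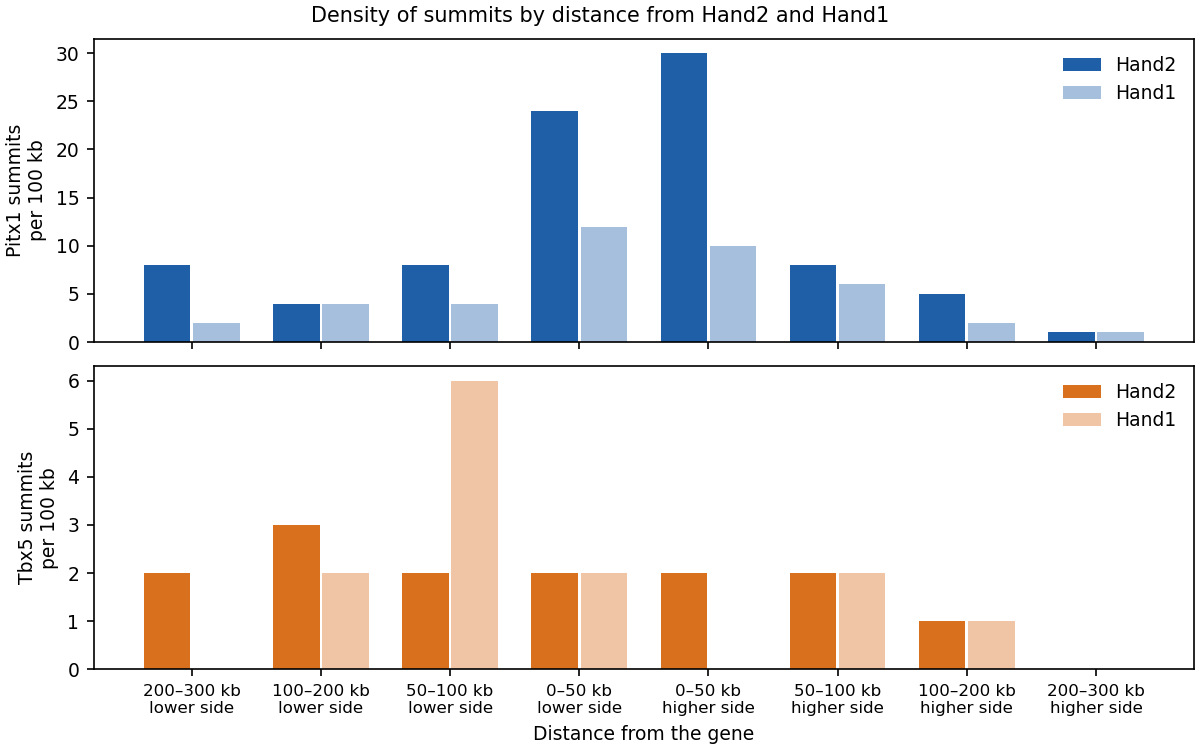
Summits per 100 kb by distance from the gene on the lower- and higher-coordinate side, Pitx1 above and Tbx5 below, with Hand2 in dark and Hand1 in light bars. The lower-coordinate side is upstream of Hand2. The strand of Hand1 was not at hand, so paired bars are not matched by direction of transcription. Pitx1 density near Hand2 reaches 24 and 30 per 100 kb in the bars next to the gene, against 12 and 10 at Hand1; Tbx5 has 2 per 100 kb in each of these bars at Hand2, against 2 and 0 at Hand1.

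Sites where summits of both factors lay within 200 bp are called shared, and 4 of the 10 Tbx5 summits were, or 40% (95% interval 12.2 to 73.8), against 39.5% of the whole Tbx5 list. The share is close to that of the list. Of the 55 Pitx1 summits the same 4 sites make 7.27% (2.02 to 17.6), against 7.39% of the whole Pitx1 list. The strongest Tbx5 summit of the window was among these: its Pitx1 partner, 73 bp off, scored 47.2 and was in the second list. In the desert, the Pitx1 summit at 57095412 scored 49.2 and the Tbx5 summit at 57095234, 178 bp from it, 4.67. Close by, the Pitx1 summit at 57112560 scored 18.9 and the Tbx5 summit at 57112380, 180 bp from it, 8.95. The fourth site was weak in both lists, with 3.83 for Pitx1 at 57254985 and 4.67 for Tbx5 at 57254807, 178 bp apart. The next closest pair, in Gm34030 and Hdnr, lay 527 bp apart, with scores of 14.4 for Pitx1 and 17.8 for Tbx5.

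The strong Tbx5 pair in the desert had no strong Pitx1 partner. The summits with scores of 38.6 and 27.2 lay 9995 and 4892 bp from the nearest Pitx1 summit, which scored 4.84. Of the 29 Pitx1 summits inside Hand2 or within 50 kb of it 0 were shared, a count from which nothing is read, since 7.39% of the whole list were.

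The second Pitx1 list held 20 of the 55 summits, or 36.4% (23.8 to 50.4), against 32.4% of the whole longer list. Membership followed the score, with a median of 19.3 for those in it and 5.37 for the others. Taking the share in the second list for each of 10 score classes of the whole list, 20.5 of the 55 would be in it, close to the 20 found. Among summits of score at least 10, 17 of 25 at Hand2 were in it (68%), against 65.1% of the list. The Hmgb2 promoter summit was an exception, since 98% of the 1271 Pitx1 summits of score at least 100 were in the second list and 26 were not.

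Set against all genes, the Hand2 window was rich in sites of both factors. Windows of 300 kb around 21883 protein-coding genes held a median of 14 Pitx1 summits (quartiles 7 and 22) and 2 Tbx5 summits (quartiles 0 and 4). The 55 Pitx1 summits of Hand2 were matched or exceeded by 1.05% of windows, the 10 Tbx5 summits by 2.57% and the 4 shared Tbx5 summits by 5.32%. The highest counts were 118, 63 and 35. At Hand1 the 28 Pitx1 summits were matched or exceeded by 12.5% of windows, the 8 Tbx5 summits by 4.96% and the 4 shared Tbx5 summits by 5.32%. High counts of Tbx5 and of shared summits were therefore not particular to Hand2. Windows of neighbouring genes overlap, so they are not independent.

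**Figure D3:**
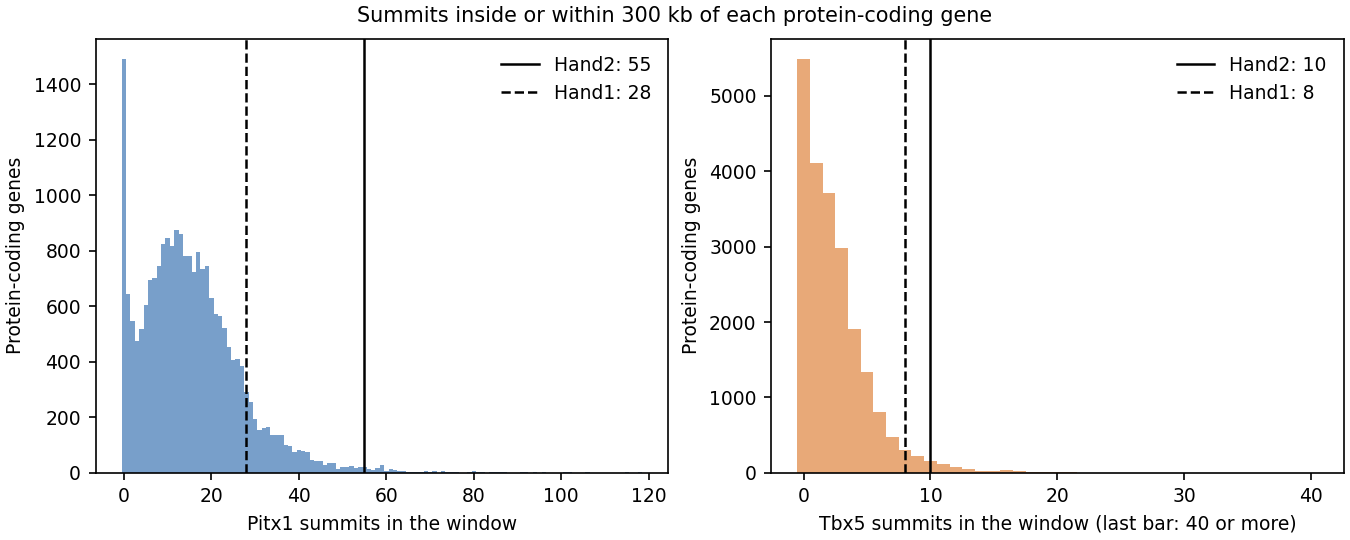
Number of protein-coding genes by the count of Pitx1 (left) and Tbx5 (right) summits inside the gene or within 300 kb, with Hand2 as a solid and Hand1 as a dashed line. Hand2 at 55 Pitx1 summits lies in the right tail, above Hand1 at 28, while the Tbx5 counts of 10 and 8 lie close together.

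Hand1 has a close protein-coding neighbour on its lower-coordinate side only. There Sap30l lies 18.1 kb from Hand1, followed by Galnt10, and both have a relative in the Hand2 window, Sap30 and Galnt7. On the other side lie Larp1, 141 kb away, Cnot8 and Gemin5. The Hand2 window held 55 Pitx1 summits and the Hand1 window 28, that is 9.11 and 4.64 per 100 kb. The median Pitx1 score was 8.28 at Hand2 and 5.92 at Hand1. Inside the gene or within 10 kb of it lay 15 of 55 Pitx1 summits at Hand2 and 9 of 28 at Hand1. Within 50 kb there were 29 of 55 and 14 of 28, so the part of the summits next to the gene was similar in both windows. The same shares over all gene windows were not computed. The Hand2 window held more Pitx1 summits than that of Hand1 under each of 7 other settings of flank, list or score, with 37 and 19 at a flank of 100 kb and 10 and 5 among the highest-scoring Pitx1 summits. For Tbx5 the counts were 10 and 8, and their order depended on the setting. At a flank of 100 kb there were 4 at Hand2 and 5 at Hand1, at 200 kb 8 at each, and at 500 kb 20 at Hand2 and 8 at Hand1. With scores of at least 5 there were 7 at Hand2 and 6 at Hand1, and with scores of at least 10 there were 4 at each.

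Counts inside genes differed between the 2 windows. Genes held 27 of 55 Pitx1 summits at Hand2 and 19 of 28 at Hand1, and protein-coding genes held 6 and 14. The part of each window that genes cover was not computed, nor was the share of the whole list inside genes. Whether these counts follow the layout of the genes was not tested. Galnt10 alone held 8 Pitx1 and 5 Tbx5 summits. Among these was the strongest Tbx5 summit of either window, with a score of 284 at chromosome 11 position 57760747, rank 53 of the list, whose nearest Pitx1 summit was 6907 bp away. The strongest Pitx1 summits near Hand1 scored 47.2 at 57883234, 39.3 at 57827661, 21.3 at 57549162 and at 57683950, and 20.5 at 57696267. Hand1 was not among the genes matched to a promoter window, so its strand and promoter sequence were not at hand. Around its lower-coordinate end no summit of either factor lay between those at 57827696 and 57829794. Around its higher-coordinate end none lay between those at 57831439 and 57833245. The promoter window of Galnt10 held a Pitx1 summit with a score of 4.32.

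Within 10 kb each gene had 1 Tbx5 summit. At Hand2 it was the one 527 bp from a Pitx1 summit, which counts as shared when pairs within 1000 bp do, and at Hand1 it was shared within 200 bp, as 39.5% of the whole Tbx5 list were. There the Pitx1 summit at 57827661, 1.05 kb from the lower-coordinate end of Hand1, scored 39.3 and was in the second list, and the Tbx5 summit at 57827696, 35 bp from it, scored 34.7. Of the other shared sites of the Hand1 window, 2 were in Galnt10, with 21.3 for Pitx1 and 7.64 for Tbx5 at the first and 4.84 for Pitx1 and 3.1 for Tbx5 at the other. The last lay 54.1 kb above Hand1, with 16.6 for Pitx1 and 3.6 for Tbx5. In all, 4 of 10 Tbx5 summits were shared at Hand2 and 4 of 8 at Hand1, or 40% and 50% (15.7 to 84.3). The intervals overlap.

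**Figure D4:**
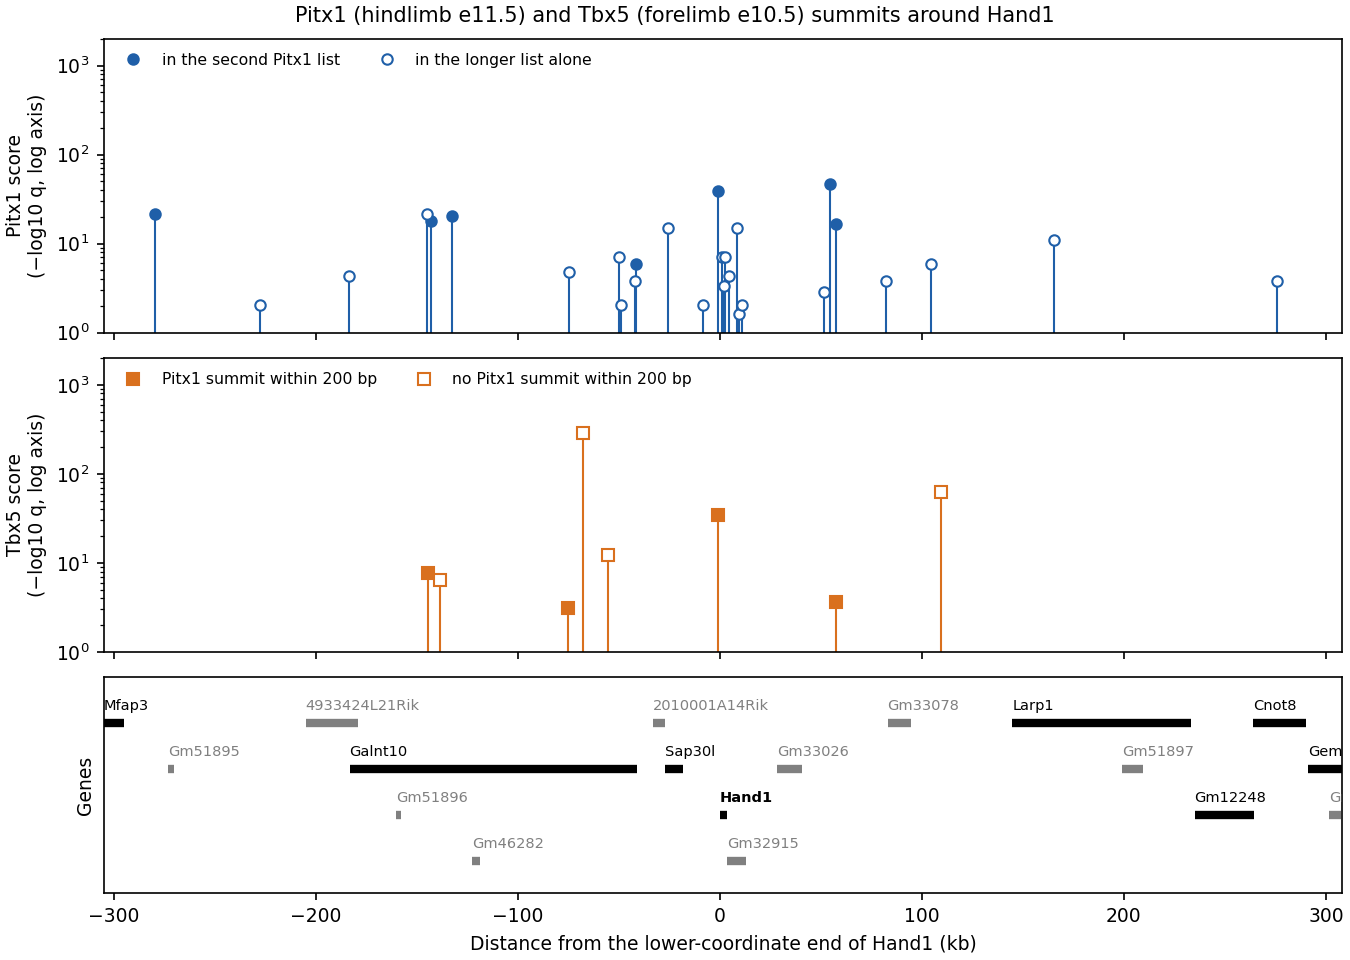
Summits around Hand1, placed by distance from its lower-coordinate end (kb), with height as the score (−log10 q, log axis), symbols and genes as in the map of Hand2. The Tbx5 summit with a score of 284 lies inside Galnt10, and a Pitx1 and a Tbx5 summit with scores of 39.3 and 34.7 stand together next to Hand1.

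Windows of the posterior limb network, a list of 22 genes with Hand2 among them, held many sites. The list was chosen with earlier results of these data known, so its counts are a description and not independent support. All 22 had Pitx1 and Tbx5 summits, which is also true of 93.2% and 74.9% of all protein-coding genes. The medians were 40 Pitx1 and 10 Tbx5 summits, against 14 and 2 over all genes. For Pitx1, 9 of the 22 had at least as many as Hand2, against 1.05% of all gene windows. For Tbx5 12 of the 22 did, against 2.57%, and Hand2 itself is counted in each. Hoxa11, Hoxa13 and Hoxd10 to Hoxd13 are among both, and they stand for 2 stretches of the genome. The highest counts were 96 and 21 at Hoxa11 and Hoxa13, 80 and 17 at Hoxd11, Hoxd12 and Hoxd13, 79 and 16 at Hoxd10, 70 and 22 at Tbx2 and 60 and 13 at Tbx3. Ptch1, the hedgehog receptor, had 54 Pitx1 summits and 3 Tbx5 summits, and Gli3, the antagonist of Hand2, had 34 and 10. Shh had 9 and 2, below the median of all genes for Pitx1, and Lmbr1, the gene that holds the distant limb enhancer of Shh, had 16 and 3.

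**Figure D5:**
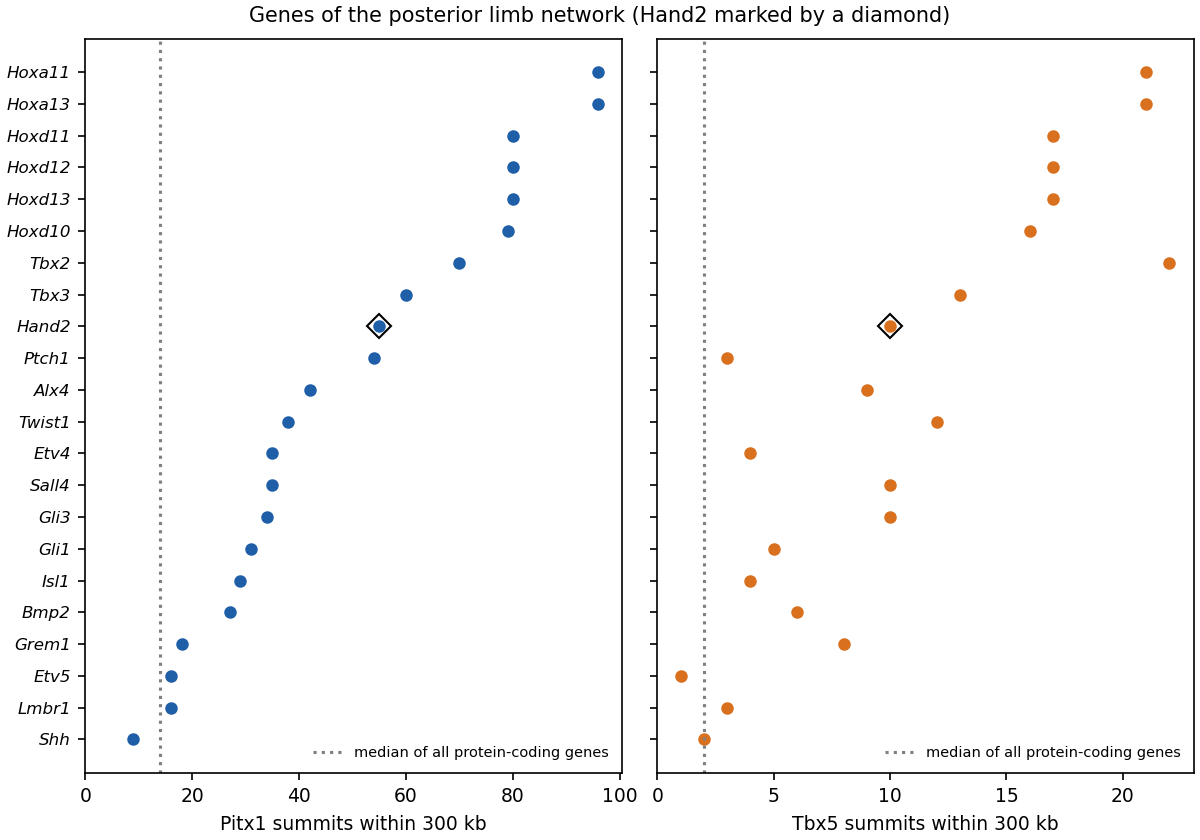
Pitx1 (left) and Tbx5 (right) summits inside or within 300 kb of each of 22 genes of the posterior limb network, ordered by the Pitx1 count, with the median of all protein-coding genes as a dotted line. Hand2, marked by a diamond, stands at 55 and 10, below Tbx3 at 60 and 13 and next to Ptch1 at 54 and 3.

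Genes of the heart, where Hand2, Hand1 and Tbx5 also act, were near the median of all genes. The 15 listed had a median of 14 Pitx1 and 2 Tbx5 summits, the same as over all genes. Hand2 and Hand1 were left out of these 15, while Hand2 is counted in the limb list and Isl1 is in both. The lists are therefore not built alike. All of the gene lists, this one included, were chosen with earlier results of these data known. Of the 15, 0 reached the counts of Hand2, which 1.05% of all gene windows did for Pitx1 and 2.57% for Tbx5, too few for the 0 to say anything of the list. Their highest counts were 33 Pitx1 summits at Mef2c and 6 Tbx5 summits at Gata4. The list of helix-loop-helix partners of the Hand proteins, with 11 genes including Hand2 and Hand1, lay between, with medians of 30 and 7. In it Tcf4, an E protein gene with a long window of 944.5 kb, had 64 Pitx1 and 12 Tbx5 summits, and Id2, an inhibitor that forms dimers without binding DNA, had 17 and 5.

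The genes whose windows were most like that of Hand2 in their 3 counts were Pigc, Cox4i1, Emc8, Fip1l1 and Lemd3. Pigc had 56 Pitx1, 10 Tbx5 and 4 shared Tbx5 summits, at a Euclidean distance of 0.0255 on the log2(count + 1) scale, and the other 4 had 54, 10 and 4, at a distance of 0.026. Lnx1, next in order, had the same counts as those 4. Cox4i1 and Emc8 are neighbours on chromosome 8. Only counts in 2 samples, 1 of each factor, went into this likeness.

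The window's edge fell in thinly occupied sequence on the downstream side. The last Pitx1 summit inside lay 219 kb downstream of Hand2 with a score of 4.84, and the first outside lay at 302 kb with a score of 2.03. For Tbx5 the last inside lay at 163 kb with a score of 3.6 and the first outside at 302 kb with 7.02. Upstream the outermost Pitx1 summit inside scored 48.2 at 268 kb, and the next one out scored 4.84 at 304 kb. The outermost Tbx5 summit upstream was at 226 kb with a score of 4.67, and the next one out at 337 kb with 5.23.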

How the data were processed

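Wild-type CD1 mouse limb buds were fixed with formaldehyde and their sheared chromatin immunoprecipitated, with paired-end reads for these samples, per the labels' protocols and descriptions. The deposited files of 2 samples, Pitx1 and Tbx5, give summit positions on mm10 and, per the names of the deposited peaks, come from MACS2. Per the submitters' processing notes MACS2 2.1.1.20160309, HOMER, Bowtie2 2.2.6 and Bowtie 1.1.2 were used, in roles they do not state. The Tbx5 peak names carry the tag rep2 and the second Pitx1 list the tag Mrep2, and which replicates went into either is not stated. The deposited score was read as the −log10 q-value of MACS2 output. Its lowest values, 1.31 for Pitx1 and 1.42 for Tbx5, lie above 1.3, the −log10 of 0.05. The second deposited Pitx1 list carries a further score and a pair of distances in bp without an explanation, and the distances were not used. The sources used here do not give the authors' control, depth, filters or pooling.

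Positions were read 1-based. Genes and promoters came from RefSeq tables of GRCm38.p6, the assembly of mm10. Exons and introns were not assigned. Windows, shared pairs (within 200 bp), gaps, ranks and exact Clopper-Pearson 95% intervals were computed with Python 3.11.15, pandas 2.3.3 and SciPy 1.17.1. The counting was tested on simulated summits. Named were Hand2, Hand1, genes in their windows, every Tbx5 summit and shared pair, the 10 and 5 highest Pitx1 summits, the 5 most similar windows and list members by their counts. The members and lists were chosen with earlier results of these data known.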

Additional observations from a re-analysis of the deposited data

How the results depend on the processing

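No paired analysis was possible because each factor had 1 sample. Of 86 values computed under other settings, 32 that differ from the reported ones by over 1.5 times, or lie outside the 95% interval of a share, concern the main results and are given here. For the percents of gene windows this interval treats overlapping windows as independent and is too narrow. There it only picks which values are listed and does not measure whether they differ. Pitx1 summits at Hand2 numbered 20 in the second list, 25 with a score of at least 10 and 10 among the 10273 highest-scoring Pitx1 summits, and those at Hand1 7, 10 and 5, with 15 at Hand1 for a score of at least 5. Tbx5 summits at Hand2 numbered 4 at a flank of 100 kb, 20 at 500 kb and 4 with a score of at least 10, and those at Hand1 5 at 100 kb and 4 with a score of at least 10. Shared Tbx5 summits at Hand2 numbered 2 at flanks of 100 and 200 kb, 9 at 500 kb, 2 with scores of at least 5, 1 with scores of at least 10, 2 with the highest-scoring Pitx1 summits and 1 when pairs within 100 bp counted. The share of Pitx1 summits at Hand2 in the second list was 51.4% for scores of at least 5 and 68% for scores of at least 10, both close to the whole list's 46.5% and 65.1%. The percent of gene windows with fewer Pitx1 summits than Hand2, 98.9, was 99.4 at a flank of 100 kb, 99.2 at 200 kb, 97 with the highest-scoring Pitx1 summits, 99.5 per 100 kb of window and 99.4 for windows that tile the chromosomes. For Tbx5 it was 97.4, and 95.1, 97.7 and 99.3 at flanks of 100, 200 and 500 kb, 96.1 and 94.2 with scores of at least 5 and 10, and 98.6 per 100 kb of window. A smaller window or a higher score leaves fewer summits by construction. Unknown read depth limits all counts.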

Other observations

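Of the 4 shared sites of the Hand2 window, 3 had nearly the same offset, with the Pitx1 summit 178, 180 and 178 bp above the Tbx5 summit. Over the whole Tbx5 list shared summits were a median of 60 bp from Pitx1, and 9.08% of the 4062 lay over 150 bp away. Whether these offsets have a cause was not tested.

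Peaks are numbered in genome order in the deposited lists. From the first to the last Pitx1 summit of the Hand2 window 55 of 60 numbers are present, and at Hand1 28 of 41, against 77.8% over the whole list. For Tbx5 all 10 numbers are present at Hand2 and all 8 at Hand1, against 60.4% over the whole list. The first and last number of each run are present by construction, which raises the share in short runs. The shares of the windows and of the whole list are therefore not like measures.

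The unexplained score of the second Pitx1 list ordered the sites differently from the −log10 q. Its highest value in the Hand2 window, 514, was at the site 44.9 kb upstream (−log10 q of 44.2), followed by 478 at 57095412 and 266 at 57405550, while the Hand2 promoter summit (−log10 q of 27.3) had 52.1, where the lowest of the list was 50.01. A Pitx1 summit in Hdnr at 57349304 was in the second list with 113, although its −log10 q was 4.84.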
